A study of Macaca mulatta with 304 samples.

Results

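Blood drawn 90 days after thoracic irradiation was compared with the blood of the same animal before irradiation. The comparison used every rhesus macaque (Macaca mulatta) that had both a Day 90 sample and a control sample, the control being the draw 2 days before irradiation, and samples were matched by the animal identifier. This gave 15 animals and 30 of the 304 samples of the study. Of the 17 Day 90 samples, 2 had no control and entered only the comparisons with Day 60 and Day 120.

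The 15 animals were 12 of the 12 given 9.8 Gy (LD; 6 males and 6 females) and 3 of the 16 given 10.7 Gy (HD; 1 male and 2 females) to the thorax. The HD animals compared here are therefore the few with a Day 90 draw and a control, 1 of the 15 animals had no later draw, and 6 were still drawn on Day 270. No animal was left unirradiated over the same 90 days, so time after irradiation and time in the study cannot be told apart. All animals were treated with tramadol or buprenorphine in the first weeks, and dexamethasone was given to those with tachypnea, but the labels do not say which animals received it. RNA of whole blood was sequenced after removal of ribosomal RNA, and reads counted on genes ranged from 6880309 to 14609879 (median 12176165) in the 15 control samples and from 5380587 to 10043641 (median 6616744) in the 15 Day 90 samples. Library labels carry a number whose meaning is not given, and 3 sets were told apart by it: series A with the lower running numbers, series B with the higher ones, and series C, in which every library carries 0. Controls were of series A in 14 animals and of series C in 1, whereas Day 90 samples were of series B in 4 animals and of series C in 11, so that 14 of the 15 pairs joined samples of different series. All Day 60 and Day 120 samples used were of the same series as the Day 90 sample of their animal.

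Whole blood RNA is a mixture from neutrophils, eosinophils, basophils, monocytes, lymphocytes, platelets and immature red cells, and the share of each cell type in the blood sets much of the level of its marker genes. Eosinophils are granulocytes that mature in the marrow under interleukin-5 and store cationic proteins such as eosinophil peroxidase and the ribonuclease RNASE3. B cells are radiosensitive lymphocytes that carry the B cell receptor, whose signal passes through CD79A and CD79B. In such bulk samples fewer cells of a type and less RNA per cell cannot be told apart. The labelled tissue was checked with 8 general leukocyte genes, whose summed level was 6857 to 9056 CPM (counts scaled to library size) in controls and 5725 to 9304 CPM at Day 90. Skin and lung epithelial markers were low, with summed levels of 8.65 to 23 CPM and 19.3 to 33.4 CPM at Day 90, and KRT1, KRT17 and SFTPA1 were at 0 counts in all 30 samples.

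By Day 90 the blood held more RNA of eosinophil genes and less of B cell genes than before irradiation. Every tested gene of the eosinophil list rose, from 1.66-fold for PTGDR2 to 4.68-fold for EPX, and the galectin-10 gene rose 8.26-fold. Of the B cell list 14 of 24 tested genes fell and none rose, with CD79B falling the most. CSTA and SUCNR1, a protease inhibitor and the receptor for succinate, rose 6.17-fold and 5.48-fold. Interferon-response genes gave no call in the 15 pairs.

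Over all genes, 971 of the 13751 tested genes changed (532 higher and 439 lower), which is 7.06% of the genes tested, 3.87% higher and 3.19% lower. A gene was called changed when its adjusted p was at most 0.05 (quasi-likelihood test of edgeR, blocked by animal, adjusted by Benjamini-Hochberg) and its fold change was at least 1.5. The median log2 fold change of all tested genes was -0.03. Of the 971 genes, 301 moved in the called direction in at least 90% of animals, and 1 had Day 90 values that did not overlap the control values. Both counts were taken only among genes called on these same samples, so they describe the calls and do not test them. Since nearly all pairs join different library series, a further fit took in the 304 samples of the study and added library series as a term, and there 5.3% of genes were higher and 3.55% lower. Counts from it are marked as with series in the fit, and are given beside the lists whose calls it moved. That fit also differs from the paired one in its samples and in how edgeR set the dispersion. What a shift between the fits comes from was not tested.

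GATA factors act in eosinophils, and the windows before 4 eosinophil genes are shown for this reason. Galectin-10, RNASE3 and CCR3 were chosen because they hold GATA matches, and EPX as a gene that rose more than CCR3 and holds none. Each sequence is the 250 bases before the annotated RefSeq gene start on Mmul_10, read on the gene's strand, with every match in capitals. The GATA motif searched was GATA with A or T before it and A or G after it, on both strands. The galectin-10 window lies at chr19:38952949-38953198 (minus strand), that of RNASE3 at chr7:82787688-82787937 (plus strand) and that of EPX at chr16:38608575-38608824 (minus strand). The window of CCR3, the eotaxin receptor, lies at chr2:102268643-102268892 (plus strand), before a short annotated gene at chr2:102268893-102269960. Whether the windows are promoters was not tested.
Galectin-10: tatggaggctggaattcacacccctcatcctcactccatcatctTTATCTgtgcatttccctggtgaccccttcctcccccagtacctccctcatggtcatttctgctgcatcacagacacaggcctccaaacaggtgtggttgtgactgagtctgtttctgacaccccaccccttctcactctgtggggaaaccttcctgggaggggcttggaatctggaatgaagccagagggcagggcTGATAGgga
RNASE3: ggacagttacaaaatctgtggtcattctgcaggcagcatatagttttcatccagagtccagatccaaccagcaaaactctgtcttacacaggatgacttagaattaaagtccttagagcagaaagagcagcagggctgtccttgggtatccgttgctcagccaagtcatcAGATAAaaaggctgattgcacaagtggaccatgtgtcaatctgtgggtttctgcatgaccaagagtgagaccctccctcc
CCR3: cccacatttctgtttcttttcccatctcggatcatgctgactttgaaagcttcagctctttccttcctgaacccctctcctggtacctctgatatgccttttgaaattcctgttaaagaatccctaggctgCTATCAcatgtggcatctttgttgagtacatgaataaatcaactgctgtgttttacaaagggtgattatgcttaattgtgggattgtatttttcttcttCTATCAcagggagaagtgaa
EPX: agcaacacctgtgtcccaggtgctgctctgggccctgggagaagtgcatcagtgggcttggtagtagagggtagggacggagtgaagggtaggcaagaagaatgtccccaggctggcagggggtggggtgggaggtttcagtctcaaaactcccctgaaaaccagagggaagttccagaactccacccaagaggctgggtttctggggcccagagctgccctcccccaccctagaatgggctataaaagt
The galectin-10 and CCR3 windows each held 2 GATA matches and the RNASE3 window held 1, as did those of CEBPE and ALOX15. The 250 bases before EPX, IL5RA, SMPD3, OLIG1, OLIG2 and PTGDR2 held none. A GATA match was present in 3 of the 8 windows of tested eosinophil genes (37.5%), in 9 of the 24 of tested B cell genes (37.5%), and in 17.9% of the 13741 windows of all tested genes. A match is only a description of the letters.

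Eosinophil genes formed the list with the largest median change. All 8 tested members rose, against 3.87% of all tested genes, with a median log2 fold change of 1.65 beside -0.03 for all genes. The summed level of the 11 listed genes in the count table was 39.3 to 241 CPM (median 97) in controls and 75 to 710 CPM (median 247) at Day 90. The granule genes PRG2, PRG3 and RNASE2 were too low to be tested, and CLC and SIGLEC8 have no row under these symbols.

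The gene with the largest increase was LOC699418 (chr19:38947505-38952948, minus strand, Mmul_10), which RefSeq annotates as galectin-10, the protein of the Charcot-Leyden crystals of eosinophils. It is named here after its values were seen, because the named-gene rule left out symbols of this kind, and reads shared with neighbouring galectin genes cannot be told apart. Its level ran from 0.727 to 62.7 CPM (median 13) in controls and from 19.4 to 657 CPM (median 88.1) at Day 90. It was higher in 14 of 15 animals, and in the other, B1003, it was 62.7 CPM before and 62 CPM at Day 90. The highest value, 657 CPM, was in the HD female B2504, whose control had held 1.54 CPM. The log2 fold change was 3.05 (SE 0.54, adjusted p = 0.00104).

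EPX (eosinophil peroxidase; chr16:38597065-38608574, minus strand) ran from 0.084 to 93.2 CPM (median 4.56) in controls and from 4.48 to 127 CPM (median 21.2) at Day 90. The log2 fold change was 2.23 (SE 0.45, adjusted p = 0.00257). EPX was lower at Day 90 in 2 animals, in B1004 from 34.7 to 5.1 CPM and in B1003 from 93.2 to 75.9 CPM. These were the highest EPX levels among all 15 controls, and at Day 90 the ranges of the groups still overlapped.

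IL5RA (chr2:134391288-134428409, minus strand), the interleukin-5 receptor subunit that binds the cytokine, ran from 0.818 to 13.8 CPM (median 4.76) before and from 8.04 to 63.5 CPM (median 18.5) at Day 90. It was higher in 14 of 15 animals, with a log2 fold change of 1.86 (SE 0.28, adjusted p = 0.000336). RNASE3 (chr7:82787938-82788959, plus strand), an eosinophil granule ribonuclease outside the list, was low, at 0.068 to 1.31 CPM before and 0.767 to 4.92 CPM at Day 90, and rose in all 15 animals (log2 fold change 2.01, SE 0.33). RNASE3 has close relatives, so reads shared with RNASE2 may be counted on either gene.

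The receptors and regulators of the list rose with the granule genes. SMPD3, a neutral sphingomyelinase, went from a median of 14.5 to 45 CPM (log2 fold change 1.81, SE 0.3). CEBPE, a transcription factor of granulocyte maturation, went from 1.76 to 4.94 CPM (1.66, SE 0.27). OLIG2, a transcription factor known in glia and in eosinophils, went from 3.89 to 11 CPM (1.65, SE 0.27).

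OLIG1, its neighbour on chromosome 3 and not a member of the list, rose in all 15 animals, from 5.18 to 45 CPM (median 15.4) before to 20.1 to 160 CPM (median 47.7) at Day 90. ALOX15, which oxidises arachidonic acid, had medians of 29.6 and 56.5 CPM (log2 fold change 1.29, SE 0.25). CCR3, the eotaxin receptor, had medians of 13.4 and 23.6 CPM (0.99, SE 0.22), and PTGDR2, a prostaglandin D2 receptor, of 13.6 and 26.9 CPM (0.73, SE 0.18). PTGDR2 and CCR3 are also expressed by basophils.

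Basophil and mast cell genes gave no call upward. Of 7 tested members none rose and 2 fell, MS4A2 (the beta chain of the high-affinity IgE receptor; log2 fold change -0.98, SE 0.34) and IL3RA (a subunit of the interleukin-3 receptor; -0.80, SE 0.22), and with series in the fit 4 fell. MS4A2 was called in 6 of the 15 fits that left out 1 animal. CPA3, a mast cell and basophil protease, had medians of 3.92 and 3.31 CPM, and its change of -0.45 (SE 0.39) did not pass the test, whereas with series in the fit it was at -0.94 (adjusted p = 0.0329), which passed.

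**Figure D1:**
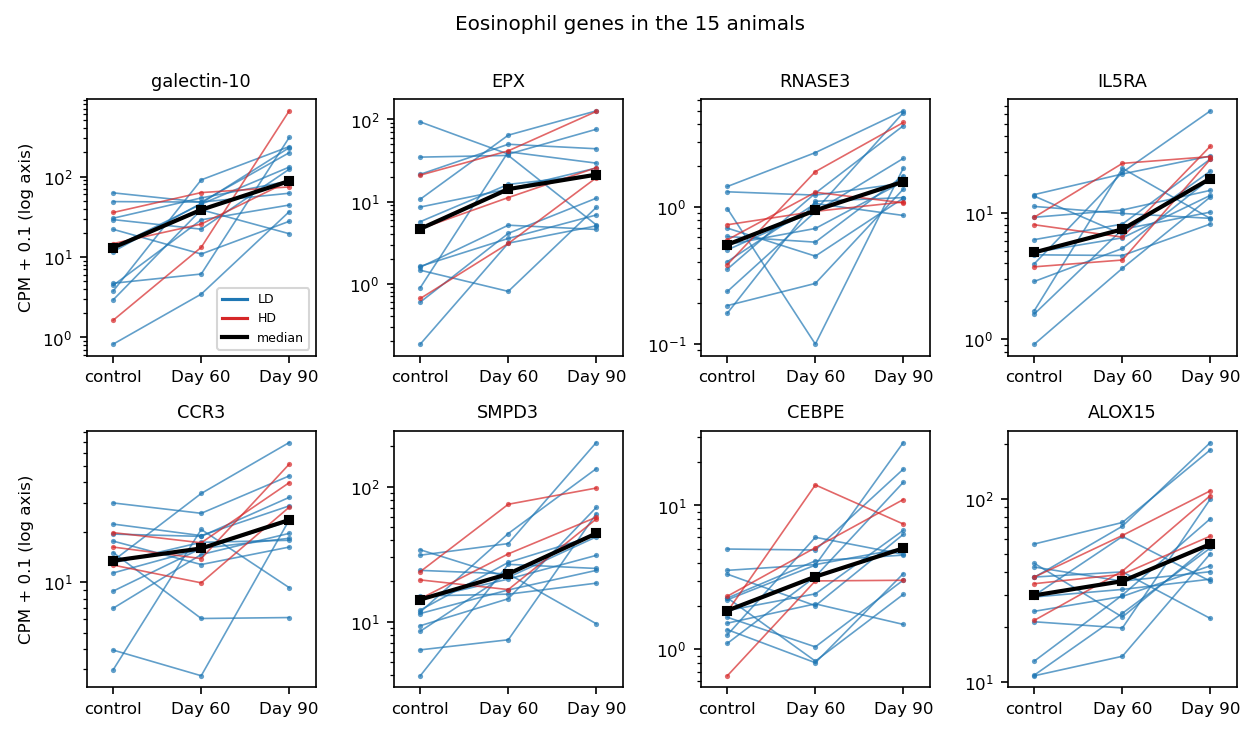
Levels of 8 eosinophil genes in the control, Day 60 and Day 90 samples of the 15 animals (CPM + 0.1, log axis), 1 thin line per animal (LD blue, HD red), with the median in black. The median rose at each step in every panel, and galectin-10 reached 657 CPM in 1 HD animal.

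Taken animal by animal, the median log2 change over the 8 eosinophil genes ran from -0.82 in B1004 to 3.16 in B1002 and was above 0 in 14 of 15 animals. The 3 HD animals lay at 1.77, 1.83 and 2.01, inside the LD range. Leaving out any 1 animal kept all 8 calls.

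B cell genes formed the main group that fell. Of 24 tested members 14 fell and 0 rose, against 3.19% of all tested genes that fell, and the median log2 fold change was -0.81. The summed level of the list was 556 to 3813 CPM (median 2084) in controls and 439 to 2224 CPM (median 1039) at Day 90. When 1 animal was left out, 13 to 17 members fell. Without the replicate block 9 fell (1.71% of all genes), and in LD animals alone 10 (1.43%).

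CD79A (chr19:41019374-41024437, plus strand) and CD79B (chr16:60488425-60492051, minus strand) encode the signalling chains of the B cell receptor. CD79B ran from 52.6 to 365 CPM before and from 21.9 to 240 CPM (median 72.2) at Day 90, and was lower in 14 of 15 animals. Its log2 fold change was -1.38 (SE 0.24, adjusted p = 0.000795). CD79A went from 90.4 to 809 CPM (median 284) to 38.3 to 317 CPM (median 148), with a log2 fold change of -1.13 (SE 0.21), and was higher at Day 90 in 2 females, B1501 and B1503. The largest fall of CD79A was in the HD female B2504, from 809 to 156 CPM.

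Further called genes of the B cell list moved likewise. CD22, an inhibitory receptor, had a log2 fold change of -1.08 (SE 0.21). FCRLA, an intracellular Fc receptor-like protein of B cells, went from a median of 42.1 to 21 CPM (-1.17, SE 0.23). CR2, the complement receptor of B cells, was lower in all 15 animals (-0.89, SE 0.16), and PAX5, which maintains B cell identity, was lower in 11 of 15 (-0.88, SE 0.22).

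MS4A1, which encodes CD20, went from a median of 222.9 to 151 CPM, and its log2 fold change of -0.50 (SE 0.23, adjusted p = 0.118) did not pass the test. In single animals the median over the list was -1.92, -1.75 and -1.73 in the 3 HD animals and ran from -1.76 to 0.41 in the LD animals. It was above 0 in 4 animals, all of them LD females (B1501, B1503, B1505 and B1506).

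Of 10 plasma cell genes 2 fell, MZB1 (log2 fold change -0.66, SE 0.18) and TXNDC5 (-0.64, SE 0.1), both of the secretory pathway. With library series in the fit these were -0.35 and -0.35 and neither passed the test.

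Lymphocyte genes outside the B lineage gave fewer calls. In the T cell list 1 of 16 tested genes fell (CD5, log2 fold change -0.62, SE 0.15), the naive lymphocyte list held no call among 8, and the medians of these lists were -0.24 and -0.42. In the T cell list 4 of 16 genes fell with series in the fit (median -0.44), and in the naive lymphocyte list 4 of 8 (median -0.55). Of 20 cytotoxic lymphocyte genes 3 fell and none rose: GZMB and PRF1, which encode granzyme B and perforin, and NCR1, a receptor of natural killer cells. Of these 20 genes 4 fell with series in the fit. GZMB went from 117.3 to 1005.6 CPM (median 313) to 81.5 to 537 CPM (median 167) and was lower in 14 of 15 animals (-0.89, SE 0.16). PRF1 had a log2 fold change of -0.69 (SE 0.16) and NCR1 of -0.76 (SE 0.19). TOX, a regulator of T cell differentiation, was the 1 of 10 checkpoint and regulatory genes that fell (-0.65, SE 0.12), and 2 fell with series in the fit.

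**Figure D2:**
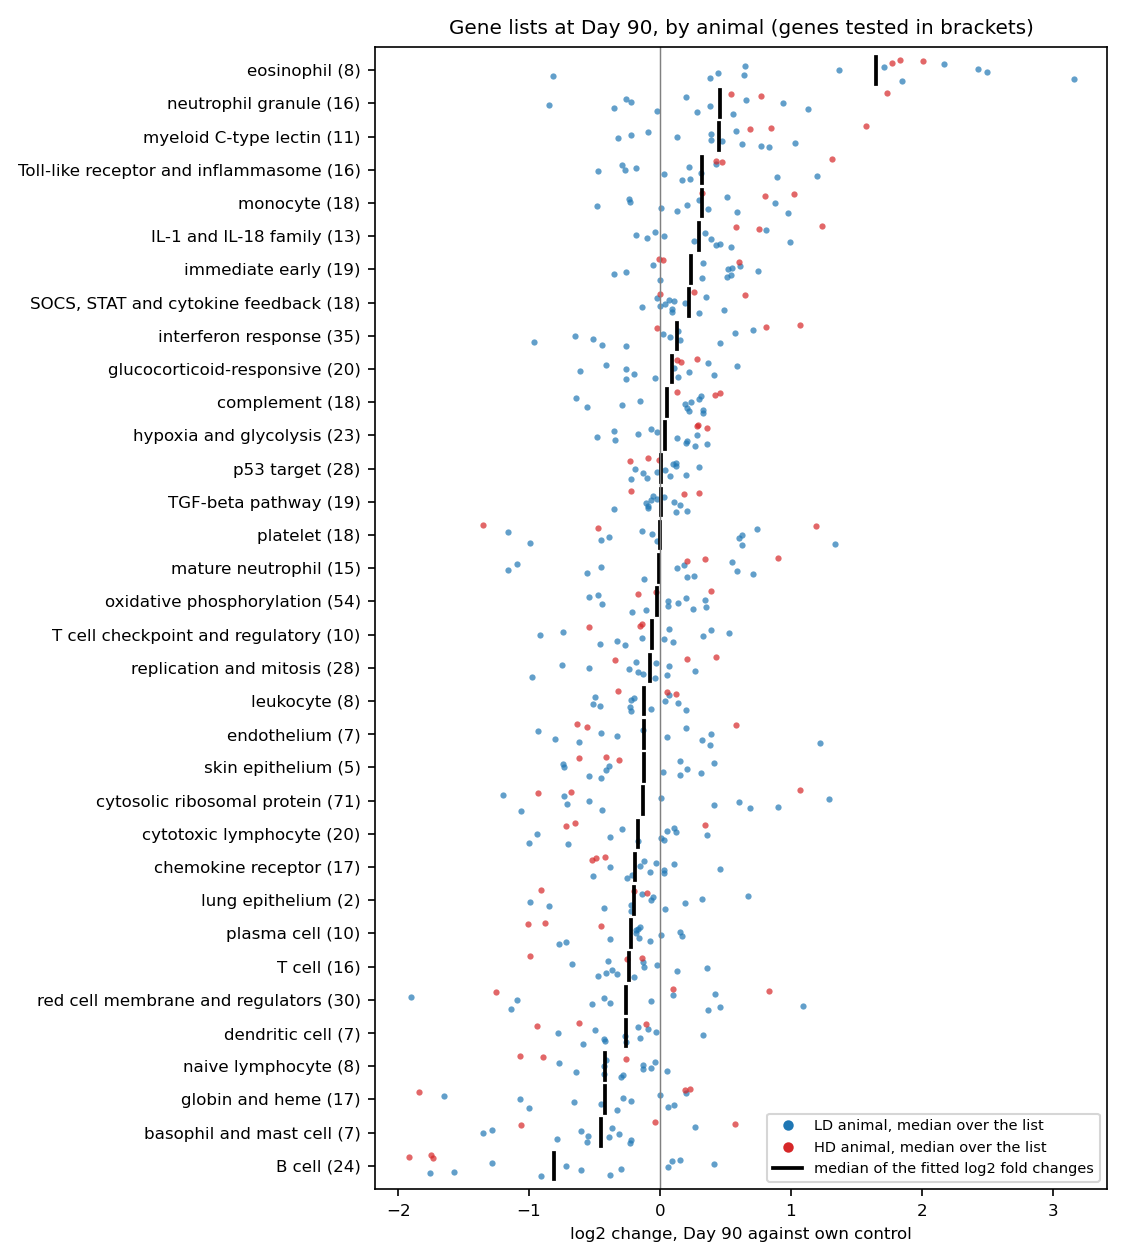
Gene lists ordered by the median log2 fold change at Day 90 against own control (horizontal axis, log2; black bar), with the median of each list in each of the 15 animals as a point (LD blue, HD red). The eosinophil list stood at 1.65 and the B cell list at -0.81, with all other lists between -0.45 and 0.46.

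Among the genes with the largest increases, several are not restricted to eosinophils. CSTA (cystatin A, an inhibitor of cysteine proteases; chr2:153970849-153987384, minus strand) ran from 0.068 to 2.25 CPM (median 0.874) before and from 0.61 to 13.4 CPM (median 6.84) at Day 90, higher in 14 of 15 animals (log2 fold change 2.63, SE 0.36, adjusted p = 0.000188). SUCNR1 (chr2:54107670-54118661, plus strand) ran from 1.68 to 18 CPM (median 3.12) before and from 7.65 to 112.4 CPM (median 15.7) at Day 90. It was higher in all 15 animals, with a log2 fold change of 2.45 (SE 0.3, adjusted p = 0.000117).

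B3GNT5, a glycosyltransferase of glycolipid synthesis, went from a median of 2.91 to 12.4 CPM and was higher in all 15 animals (log2 fold change 2.11, SE 0.24). VSTM1, an inhibitory receptor of myeloid cells, was likewise higher in all 15 (1.86, SE 0.22). SP6, a transcription factor, and MGST1, a microsomal glutathione transferase, were higher in 14 of 15, with log2 fold changes of 2.09 (SE 0.34) and 1.84 (SE 0.27). The exception was B1004 for SP6 and B1505 for MGST1.

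Genes of monocytes and of inflammatory receptors rose in part. Of 18 tested monocyte genes 4 rose and none fell, among them FCGR1A (the high-affinity IgG receptor; log2 fold change 1.29, SE 0.32), LYZ (lysozyme; 1.06, SE 0.32) and LILRB4 (an inhibitory receptor; 0.93, SE 0.21). LYZ ran from 54.2 to 488 CPM (median 307) before and from 146 to 1277 CPM (median 531) at Day 90. The median of the list was 0.32. In LD animals alone 1 of the 18 rose (2.25% of all genes higher), and with series in the fit 7 rose, while LILRB4 was at 0.53 (adjusted p = 0.191).

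Both genes called in the complement list encode receptors for activation fragments. C3AR1 went from 4.28 to 22.4 CPM (median 9.04) to 8.99 to 41.9 CPM (median 21.9), was higher in all 15 animals (log2 fold change 1.20, SE 0.15, adjusted p = 0.000117), and C5AR1 rose by 0.64 (SE 0.16) on the log2 scale. The other 16 tested complement genes gave no call, and with series in the fit 5 of 18 rose. CLEC7A, which encodes the beta-glucan receptor dectin-1, rose from a median of 24.1 to 83.2 CPM (1.49, SE 0.2), and FCER1G, the shared signalling chain of Fc receptors, by 0.64 (SE 0.15). The other 9 tested C-type lectin genes gave no call, and CLEC4D, at 0 to 24.7 CPM at Day 90, had a log2 fold change of 0.85 (SE 0.46, adjusted p = 0.189). Of the 11 lectin genes 7 rose with series in the fit, CLEC4D among them at 1.78 (adjusted p = 0.0335).

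In the interleukin-1 and interleukin-18 family 4 of 13 tested genes rose and none fell. They were IL1RL1 (the interleukin-33 receptor; log2 fold change 1.13, SE 0.24), IL1RN (the interleukin-1 receptor antagonist; 1.10, SE 0.21), IL18RAP (a subunit of the interleukin-18 receptor; 0.90, SE 0.23) and IRAK3 (an inhibitor of the receptor pathway; 0.85, SE 0.14). IL1RL1 went from 2.52 to 21.8 CPM (median 5.6) to 5.56 to 29.8 CPM (median 12.1), and was lower at Day 90 in B1001 and B1502 only. Of the 13 genes 6 rose with series in the fit. Of 16 Toll-like receptor and inflammasome genes 0 were called in the 15 pairs (median 0.32), 0 to 4 rose when 1 animal was left out, and 9 rose with series in the fit (median 0.65).

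**Figure D3:**
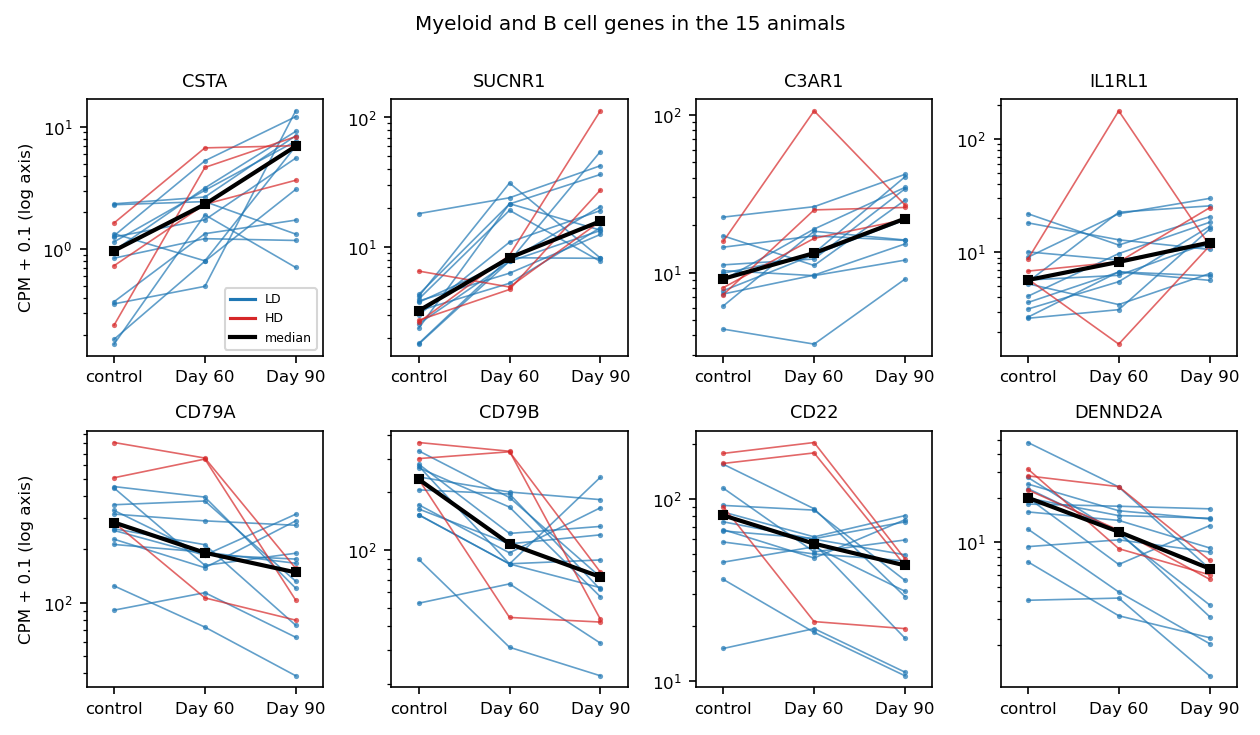
Levels of 4 genes that rose (top) and 4 genes that fell (bottom) in the control, Day 60 and Day 90 samples of the 15 animals (CPM + 0.1, log axis), 1 thin line per animal (LD blue, HD red), with the median in black. SUCNR1 and C3AR1 were higher and DENND2A was lower at Day 90 than in the control of every animal.

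In the SOCS, STAT and cytokine feedback list 4 of 18 rose and 1 fell, and SOCS3 and CISH, feedback inhibitors of cytokine receptors, had log2 fold changes of 1.05 (SE 0.21) and 0.80 (SE 0.12), JAK2 of 0.70 (SE 0.16), OSM of 0.65 (SE 0.14) and JAK3 of -0.61 (SE 0.15). Of these 18 genes 8 rose and 0 fell with series in the fit. In the p53 target list 2 of 28 rose and 1 fell. CDKN1A, the cell cycle inhibitor p21, went from a median of 46.6 to 78.6 CPM (0.74, SE 0.11), TP53INP1 rose by 0.91 (SE 0.16), and PHLDA3 fell by 0.90 (SE 0.21), all on the log2 scale. EDA2R, a p53-responsive receptor, did not pass the test (0.51, SE 0.29, adjusted p = 0.217).

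Of 20 glucocorticoid-responsive genes 3 rose: ADORA3 (an adenosine receptor also found on eosinophils; 1.28, SE 0.21), THBD (thrombomodulin; 0.71, SE 0.17) and SAP30 (a corepressor subunit; 0.59, SE 0.18), and 4 rose with series in the fit. FKBP5 and ZBTB16, which glucocorticoids induce strongly, had log2 fold changes of -0.42 (SE 0.12) and -0.05 (SE 0.18), and neither reached the fold limit of 1.5. Their levels at Day 90 were 125.1 to 341 CPM and 11.6 to 54 CPM.

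Of 19 immediate early genes 4 rose, FOSB (log2 fold change 1.07, SE 0.19, higher in all 15 animals), KLF4 (1.06, SE 0.17), IER3 (1.02, SE 0.32) and ATF3 (0.65, SE 0.14). With series in the fit 5 rose and 1 fell, and IER3 was at 0.90 (adjusted p = 0.0766). HK3 and LDHA, of glycolysis, rose by 0.98 (SE 0.19) and 0.72 (SE 0.16) among 23 tested genes of hypoxia and glycolysis, of which 4 rose with series in the fit. Among 28 genes of replication and mitosis 3 fell and none rose, MCM3 (-0.76, SE 0.14), MCM5 (-0.68, SE 0.13) and MKI67 (-0.64, SE 0.19). With series in the fit 0 of the 28 were called, with MKI67 at -0.24 and MCM3 and MCM5 at -0.48 and -0.49. The interferon list held no call among 35 genes, with a median of 0.13, and with series in the fit 3 rose. The TGF-beta list had 1 gene higher (TGFBI, 0.73, SE 0.21) and 1 lower (LTBP3, -0.68, SE 0.18) of 19.

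The calls of neutrophil and platelet genes differed in number between the fits. Of 16 tested neutrophil granule genes, ARG1 and MMP9 rose (log2 fold changes 0.93, SE 0.21, and 0.82, SE 0.22) and CHI3L1 fell (-1.03, SE 0.26), and of 15 mature neutrophil genes ADGRG3 rose (1.04, SE 0.2) and ALPL fell (-1.09, SE 0.33). With series in the fit 5 neutrophil granule genes rose and 1 fell (median 1.01), and 5 mature neutrophil genes rose and 0 fell (median 0.51). ARG1 was then at 0.44 (adjusted p = 0.274) and ALPL at -0.63 (adjusted p = 0.259). GNG11 was the 1 platelet gene of 18 called (0.71, SE 0.25), and was called in 6 of the 15 fits that left out 1 animal, while 3 platelet genes rose with series in the fit. TIE1, a receptor of endothelium, fell in all 15 animals (-0.91, SE 0.14), as 1 of 7 tested endothelial genes. In the chemokine receptor list CCR1 rose (1.03, SE 0.24) beside CCR3, and CCR6 fell (-0.62, SE 0.14), of 17 tested. With series in the fit 3 rose and 3 fell, and CCR6 was at -0.48.

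The genes with the largest decreases included several with no role in one of the lists. DENND2A (a regulator of Rab proteins; chr3:166931110-167057787, minus strand) ran from 3.94 to 47.6 CPM (median 20) before and from 1.14 to 16.8 CPM (median 6.53) at Day 90, and was lower in all 15 animals (log2 fold change -1.56, SE 0.24, adjusted p = 0.000443). UST (a sulfotransferase of glycosaminoglycans), FBLN2 (fibulin 2 of the extracellular matrix), PRAG1 (a pseudokinase) and IQGAP3 (a scaffold protein) were also lower in all 15, by 1.16 to 1.46 on the log2 scale. ITGAD, an integrin chain of leukocytes, went from a median of 92.2 to 32.4 CPM and was lower in 14 of 15 animals (-1.30, SE 0.21). TMEM238 (-1.31, SE 0.29) and KCNIP3 (-1.17, SE 0.3), a calcium-binding protein, were lower in 14 of 15.

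Further genes followed through the study moved as follows. SOX5, a transcription factor, fell by 1.07 (SE 0.25) and WNT7B, a secreted Wnt ligand, fell by 1.20 (SE 0.28) on the log2 scale. PTPRF, a receptor phosphatase, had a log2 fold change of -0.93 (SE 0.25), PCDHGC3, a protocadherin, of -0.87 (SE 0.17) and CCDC141 of -0.97 (SE 0.31). PMP22 rose by 1.31 (SE 0.39), at a median of 0.364 CPM before and 0.972 CPM after, and HTR7, a serotonin receptor, by 0.78 (SE 0.25). HDAC11 (-0.53, SE 0.31), KLF1 (-0.39, SE 0.36) and SELENBP1 (-0.60, SE 0.39) did not pass the test. These genes had been chosen with earlier results of these data known.

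Red cell genes need the library series beside them. HBB (beta globin; chr14:63067679-63069138, plus strand) was at 23.3 to 317 CPM in the 14 controls of series A, at 132.2 to 295 CPM in the 4 Day 90 samples of series B, and at 2.02 to 22.7 CPM in the 11 of series C. HBB fell in each of the 10 animals whose pair ran from series A to C, and it rose in 3 of the 4 whose pair ran from A to B. In B2504, the only pair within 1 series, it was 3.64 CPM before and 20.6 CPM at Day 90. Over all 15 animals the log2 fold change of -1.91 (SE 0.69, adjusted p = 0.0531) did not pass the test. With series in the fit HBB was at -1.36 (adjusted p = 0.0333), which passed. Held within series C, between unpaired samples, HBB was at -0.23 (adjusted p = 0.782), which did not pass.

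Of 17 tested globin and heme genes 2 fell and none rose, HBQ1 (theta globin; log2 fold change -1.17, SE 0.26) and HBM (mu globin; -1.14, SE 0.37). With library series in the fit they were at -0.67 (adjusted p = 0.218) and -0.73 (adjusted p = 0.177). ALAS2, the first enzyme of heme synthesis in red cells, had medians of 4359 and 2409 CPM (-0.61, SE 0.31, adjusted p = 0.158), and SLC4A1, the anion exchanger of the red cell membrane, of 759 and 490 CPM. HBA had a log2 fold change of -0.55 (SE 0.45) over the 15 animals, which did not pass. Between unpaired samples of series C it was at 2.51 (adjusted p = 0.0472), which passed. In the list of red cell membrane and regulator genes GFI1B was the 1 of 30 called (0.71, SE 0.19), and with series in the fit it was at 0.62 (adjusted p = 0.0962). For the globins time and library series cannot be told apart. The study's methods name the Ribo-Zero Plus kit for depletion, and how much globin RNA was left in each library was not tested.

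**Figure D4:**
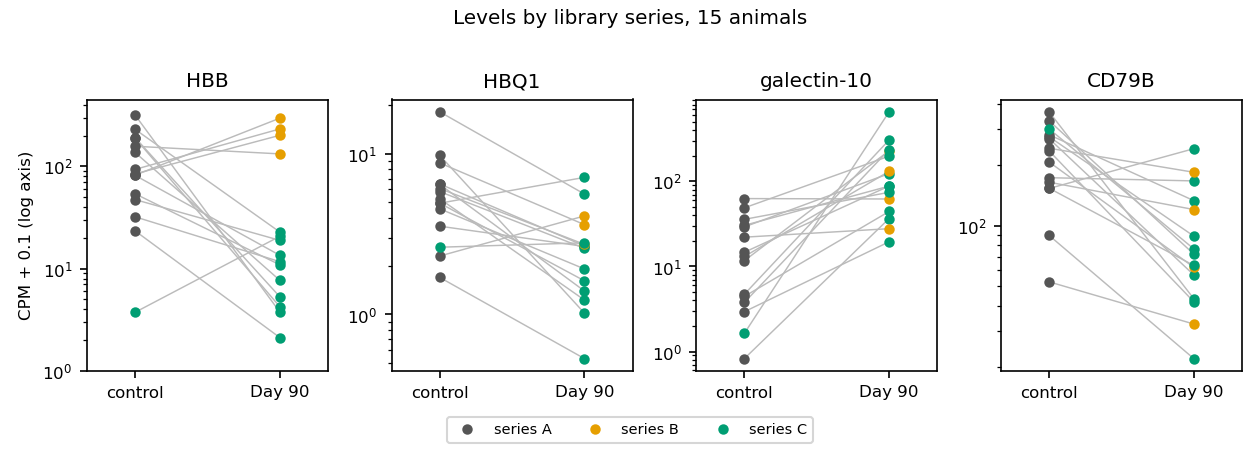
Levels of HBB, HBQ1, galectin-10 and CD79B (CPM + 0.1, log axis) in the control and Day 90 samples of the 15 animals, joined by animal and coloured by library series. HBB at Day 90 was at 132.2 to 295 CPM in series B and at 2.02 to 22.7 CPM in series C, while galectin-10 was at 27.7 to 228.9 CPM in B and at 19.4 to 657 CPM in C.

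With library series as a covariate 1217 genes were called (8.85%), and of the 971 genes called in the 15 pairs 966 kept their direction and 612 (63%) were called again. All 8 eosinophil genes were called (median log2 fold change 1.86), as were 13 of the 24 B cell genes (median -0.65). Galectin-10 was at 3.93, SUCNR1 at 3.10 and CSTA at 2.29, while CD79B moved from -1.38 to -0.80.

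The EPX levels of series B and C overlapped at Day 90, unlike those of HBB. EPX was at 4.48 to 127 CPM in the 4 samples of series B and at 4.96 to 125.1 CPM in the 11 of series C. In B2504, with both samples in series C, EPX went from 0.561 to 19.4 CPM and CD79A from 809 to 156 CPM. The unpaired samples of series C alone were 4 controls, all of HD animals, and 13 Day 90 samples of both doses. Between them 3 eosinophil genes rose and 4 B cell genes fell, where 6.12% of all genes were higher and 5.88% lower. Animals and dose groups differ along with time in that comparison. Among the animals whose Day 90 sample was of series C, 8 of 8 eosinophil genes rose and 15 of 24 B cell genes fell, where 5.7% of all genes were higher and 5.68% lower.

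Some calls differed between the 15 pairs and the fit with series. Of the 971 genes, 45 had a log2 fold change smaller than 0.3 in size once series was in the fit, 16 of them with provisional LOC symbols. LOC106993170 went from 2.01 to 0.17 and LOC710798 from 1.41 to 0.25. The ribosomal protein gene RPS21 went from 0.79 to 0.25, and COX6C, of the respiratory chain, from 0.72 to 0.41. Of 71 ribosomal protein genes 3 were called (1 with series in the fit), and RPS27A stood at 1.00 and 0.95 and was called in 5 of the 15 fits that left out 1 animal. Ribosomal protein genes have many processed copies in the genome, so the counts of single members are uncertain.

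**Figure D5:**
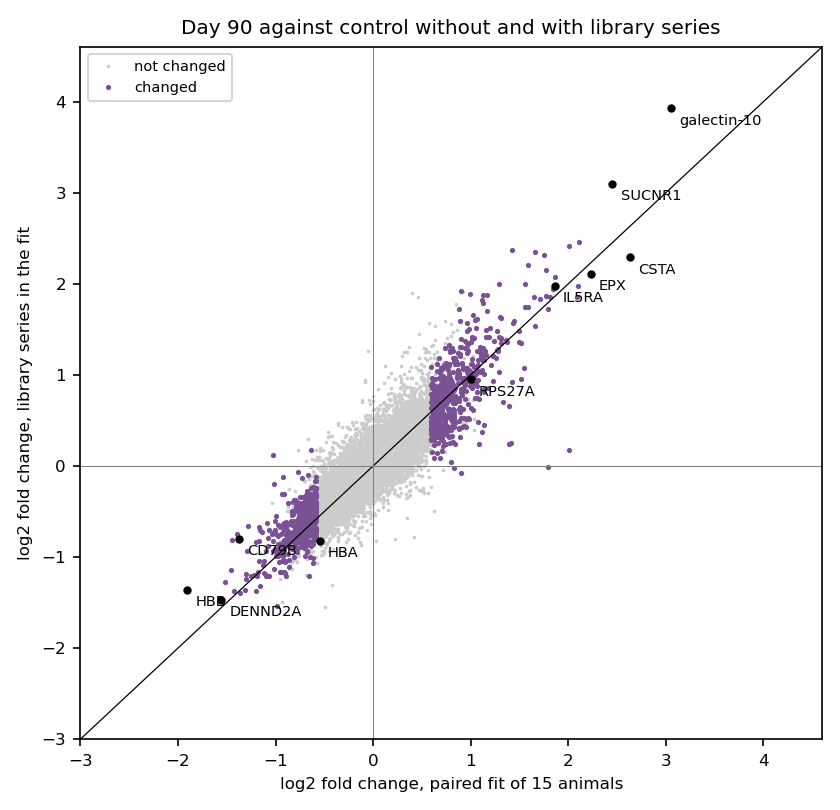
Log2 fold change of each tested gene at Day 90 against control in the 15 pairs (horizontal) and with library series as a covariate over all 304 samples (vertical), with the 971 changed genes in purple and the line of equal values. Most changed genes lie along the line, and a few lie near 0 on the vertical axis.

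Animals differed in how far they followed the common pattern. Of the 971 called genes, the share that moved in the called direction was 80.5% to 97% in 13 animals, 63.3% in B1506 and 56.5% in B1505. Both are LD females with Day 90 samples of series B. The other 2 animals with series B, the males B1002 and B1003, were at 88.1% and 94.3%. Since these animals helped make the calls, the shares only describe them.

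The change at Day 90 was then compared between doses and between sexes. No gene passed an adjusted p of 0.05 in either interaction (0 of 13751 genes by edgeR and by DESeq2). At an unadjusted p of 0.05 edgeR gave 1263 genes for dose and 257 for sex, and DESeq2 gave 1478 and 343. With 3 HD animals the dose test rests on few animals, and the absence of a call does not show that doses acted alike. Within males alone 1192 genes were called and within females alone 40, and the difference itself gave no call. In males alone 3 of 8 eosinophil genes rose and 16 of 24 B cell genes fell, where 4.34% of all genes were higher and 4.33% lower. In females alone 7 eosinophil genes rose and 0 B cell genes fell, where 0.247% of all genes were higher and 0.0436% lower.

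To see what changed in the last interval, Day 90 was compared with Day 60 in the 17 animals with both samples, all within 1 library series per animal. Of 13751 genes 44 changed (0.32%), 29 higher (0.211%) and 15 lower (0.109%). The Day 90 samples are shared with the comparison against controls, so each comparison is given with its own values. Without the animal as a block, edgeR called 0 genes (1032 at an unadjusted p of 0.05), and DESeq2 with the block called 182.

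Galectin-10 rose again over these 30 days, in 16 of 17 animals, from 3.36 to 91 CPM (median 38.6) on Day 60 in the 15 paired animals to a median of 88.1 CPM (log2 fold change 1.78, SE 0.38, adjusted p = 0.0445). B3GNT5 (1.34, SE 0.21), MGST1 (1.30, SE 0.24), VSTM1 (1.11, SE 0.21), SERPINB10 (a serine protease inhibitor; 0.97, SE 0.16) and OLIG1 (0.87, SE 0.15) were the largest increases shared by at least 90% of animals. IL5RA rose in 15 of 17 (1.04, SE 0.22), and GPR33, a chemoattractant receptor, in 15 of 17 (1.12, SE 0.21). IL5RA was the only eosinophil list member called of 8, and the median of the list was 0.76, beside -0.02 for all genes.

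The largest decreases since Day 60 that were shared by at least 90% of animals were TSHZ3 (a zinc finger protein; -1.02, SE 0.23), TPPP (a tubulin-binding protein; -0.89, SE 0.15) and UST (-0.84, SE 0.19). FCRLA fell as well (-0.91, SE 0.19) and was the only B cell gene called, with a median of -0.62 over the list. CSTA, at a median of 2.23 CPM on Day 60 and 6.84 CPM on Day 90, had a log2 fold change of 0.99 (SE 0.3, adjusted p = 0.106) and did not pass the test. SUCNR1 likewise did not pass (0.98, SE 0.34, adjusted p = 0.148).

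Day 120 was compared with Day 90 in the 14 animals with both. Of 13751 genes 2133 changed (15.5%), 1071 higher (7.79%) and 1062 lower (7.72%) with upper quartile scaling and 1357 higher and 551 lower with TMM scaling, the median of all genes being -0.18 and -0.08. With DESeq2 1581 were higher and 677 lower.

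MMP8, IL1R2, CLEC4E, ENTPD3 and CSGALNACT1 were not called at Day 90 against control in the 15 pairs and rose by Day 120. MMP8, a neutrophil collagenase, had a median of 1.17 CPM at Day 90 and 6.76 CPM at Day 120 (log2 fold change 3.08, SE 0.53), and IL1R2, the decoy interleukin-1 receptor, of 31.5 and 103.9 CPM (3.01, SE 0.66). CLEC4E, a C-type lectin receptor, ENTPD3, an ectonucleotidase, and CSGALNACT1, of chondroitin sulfate synthesis, completed the 5 largest shared increases, with log2 fold changes of 2.31 to 2.65. CSGALNACT1 passed the test at Day 90 with series in the fit (1.10, adjusted p = 0.0131). IL1RL1 rose further by 2.43 (SE 0.77) and CLEC4D by 3.16 (SE 0.65) on the log2 scale. FKBP5 rose by 1.48 (SE 0.49) and ZBTB16 by 2.13 (SE 0.71).

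The changes of the eosinophil genes from Day 90 to Day 120 were mostly downward. Their median log2 fold change was -0.84, 3 of 8 fell and none was called higher: CCR3 (-0.78, SE 0.27), PTGDR2 (-0.98, SE 0.27) and ALOX15 (-0.71, SE 0.25). EPX (-1.17, SE 0.47), IL5RA (-1.06, SE 0.42) and SMPD3 (-0.89, SE 0.38) were also negative and did not pass the test. CEBPE went from a median of 4.94 to 8.79 CPM and was higher in 10 of 14 animals, and its change of 0.82 (SE 0.31, adjusted p = 0.0509) did not pass the test. OLIG2 was at 0.04. Galectin-10 had a median of 57.5 CPM at Day 120 and its change of -0.86 (SE 0.66) did not pass the test. B cell genes fell further, 19 of 24, with a median of -1.03, and CD79B reached 5.34 to 69 CPM (-1.19, SE 0.25). This was not particular to B cells, as 12 of 16 T cell genes fell too (median -0.65). Of 15 mature neutrophil genes 14 rose (median 1.40). The 5 largest shared decreases were BAHCC1, SLCO5A1, TCL1A, PTPRG and ELFN2, of which TCL1A, a gene of immature and naive B cells, went from a median of 12 to 3.75 CPM (-1.67, SE 0.36).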

How the data were processed

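Blood RNA libraries were prepared with ribosomal RNA depletion and a stranded kit, and reads were trimmed (cutadapt 2.10), aligned (STAR 2.7.6a) to Mmul_10 and counted (Subread 2.0.1), per the labels and the study's methods. The deposited count table holds raw counts of 21070 genes in 304 samples, and a further table from the authors gives upper quartile scaled log2 values for 16730 genes. Whether counting used the strand is not given in the sources used here, so overlapping antisense genes may share reads.

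Testing took the 13751 genes that reached 3 counts in 80% or more of the 304 samples, by edgeR 4.0.16 (quasi-likelihood, upper quartile scaling, animal as block) in R 4.3.3. CPM values are upper quartile scaled, and animal directions used log2 CPM with a prior count of 2. SE is the log2 fold change divided by the root of its F statistic. Pairs share an animal by the labels, and the deviations of the 2 samples of an animal from their group means correlated by -0.06 to 0.676 (median 0.333). No 2 libraries held the same counts. P-values of the paired fits measure the spread of the change between animals. With series in the fit they rest on repeated draws of the same animals over all days. Between unpaired samples of series C they rest on the spread between samples.

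Named genes were the 10 largest increases and decreases called and moving alike in 90% or more of animals, and up to 3 called genes of each list. Added to these were genes that an earlier report on these same data named over time, and the 5 largest shared changes against Day 60 and Day 120. Others, among them galectin-10, RNASE3, OLIG1, GPR33, CR2, CPA3 and further called list members, were named after their values were seen, and some genes that the rule names are not reported here. The members and lists were chosen with earlier results of these data known. Alternatives were TMM scaling, DESeq2 1.42.0, other filters, no block, the deposited log2 values with limma 3.58.1, library series as a covariate or held fixed, LD animals, each sex, and leaving out each animal. The fit was tested on simulated data with 200 genes changed 2-fold among 13751. For Day 90, 179 were recovered with 4 false calls against control, and 183 with 1 against Day 60. For Day 120 against Day 90, 150 were recovered with 7 false calls. The simulated counts held no difference between library series, so they cannot show its effect. Python 3.11.15, pandas 2.3.3, NumPy 2.4.6 and Matplotlib 3.10.9 made tables and figures.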

Additional observations from a re-analysis of the deposited data

Results flagged for a closer look

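In 68 groups of animals (each gene list within the 7 males and within the 8 females), 1 held an animal far from the others. The groups share animals and some genes, so this count cannot be set against chance. For the hypoxia and glycolysis list the median log2 change of male B1005 was -0.34, while the other 6 males were at 0.13 to 0.36.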

How the results depend on the processing

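For Day 90 against own control the main fit called 971 genes, and each alternative is given with the total of its own fit. The fit of LD animals only called 506 and that of females only 40. Between unpaired samples of library series C 1649 were called, and 348 of the 971 were among them in the same direction. In the animals whose Day 90 library is of series C 1565 were called, an alternative chosen after seeing the data. The LD fit held 12 animals and the female fit 8, while the fit of the 7 males called 1192. The cause was not tested. Without the replicate block 720 were called, and leaving out 1 animal gave 762 (without B2504) to 1258 (without B1505). TMM scaling, DESeq2, both filters, the log2 values and the series covariate stayed within 1.5 times. Against Day 60 (44 genes) DESeq2 called 182, no filter on low counts 67, the log2 values with limma 15 and no replicate block 0, and leaving out 1 animal gave 11 (without B1002) to 181 (without B1501), so single animals decide that count. Day 120 against Day 90 gave 1261 (without B1506) to 2654 (without B1502). Dose and sex gave 0 under every alternative run. Between unpaired samples of series C, GFI1B was at -0.00 and HBA at 2.51, both of the other sign, as were HDAC11 (0.02), BAHCC1 (-0.92), ZBTB16 (0.17), CPA3 (0.41) and FCER1A (0.52), which passed the test in neither fit. With the series covariate EDA2R (-0.26), BAHCC1 (-0.32) and ZBTB16 (0.28) were of the other sign and did not pass. In fits leaving out 1 animal, GNG11 and MS4A2 were called in 6 of 15, HBM in 7, RPS27A in 5, COX6C in 4 and SAP30 in 9. Counting depth limits CSTA, MGST1, RNASE3, IER3 and PMP22, whose control medians were under 1 CPM.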
